A study of Mus musculus with 14 samples.

Results

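The genes of cholesterol synthesis and sterol handling were followed through the mouse mammary gland 3 h after E2 (17-beta-estradiol), an estrogen receptor blocker, or both. The set holds 31 genes chosen by function: enzymes of the pathway, the proteins that control its transcription, and proteins of sterol transport, storage and efflux. It was measured through 28 of those genes, out of 18193 genes with a probe set of a single symbol on the array, and each gene was read from the probe set that was brightest on average across the 14 arrays. Acat2, Soat1 and Nr1h2 had no such probe set in the annotation used and were not analysed here. All 28 lay above the level of 6.65 (log2) that marked the dim 40% of probe sets, so none was lost to low signal.

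All mice were ovariectomized C57BL/6 females, 11 to 12 weeks old on arrival with 1 week of acclimatisation, and the operation, which removes the main source of estrogen, came 7 days before treatment. The 10 groups were vehicle, E2, the blockers acolbifene (EM-652.HCl), fulvestrant, raloxifene and tamoxifen (as its citrate), each given alone, and E2 given together with each blocker. There were 2 arrays each for 4 groups (vehicle, E2, acolbifene and the pair of these drugs together) and 1 array for each of the other 6. Each group's RNA came from the combined glands of its 8 mice, and the labels do not say whether replicate arrays had pools of their own, so p-values cover the spread between arrays alone, and that spread may be technical. Doses of the blockers are not given in the labels.

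Cholesterol is built from acetyl-CoA through mevalonate, farnesyl diphosphate, squalene and lanosterol. When sterols in the endoplasmic reticulum run low, SCAP carries the transcription factor SREBP2 (gene Srebf2) to the Golgi for cleavage, and the freed factor turns on the enzymes of the whole route, whereas INSIG proteins hold SCAP back when sterols are high. Oxidised sterols activate the liver X receptors, which turn on the export pumps ABCA1 and ABCG1 and the ligase MYLIP that degrades the LDL receptor. The mammary gland of an adult mouse is mostly fat with a small ductal epithelium, and its fat, connective tissue and immune cells all make and move cholesterol.

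The arrays of Hmgcs1, an enzyme of the same pathway, overlapped between E2 and vehicle on its brightest probe set. Promoters are shown for Hmgcs1 and for 4 of the enzymes whose mRNA was lower after E2 (Idi1, Cyp51, Msmo1 and Sc5d). Each is the 250 bases before the gene's start, 5′ to 3′ on the gene's own strand, from RefSeq (build GRCm38.p6): Idi1 at chr13:8885356-8885605 (+ strand), Cyp51 at chr5:4104698-4104947 (- strand), Msmo1 at chr8:64733579-64733828 (- strand), Sc5d at chr9:42264301-42264550 (- strand) and Hmgcs1 at chr13:119690101-119690350 (+ strand). Capitals mark CCAAT on either strand (ATTGG is its other strand), the letters bound by the factor NF-Y that often works beside SREBP, and in Hmgcs1 also TCACNCCAC, the letters of a sterol regulatory element.
Idi1: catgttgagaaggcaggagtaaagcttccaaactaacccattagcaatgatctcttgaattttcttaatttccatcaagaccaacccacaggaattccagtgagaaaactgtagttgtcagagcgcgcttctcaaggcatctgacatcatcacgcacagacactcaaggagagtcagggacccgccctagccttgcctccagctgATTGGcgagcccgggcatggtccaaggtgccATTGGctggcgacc
Cyp51: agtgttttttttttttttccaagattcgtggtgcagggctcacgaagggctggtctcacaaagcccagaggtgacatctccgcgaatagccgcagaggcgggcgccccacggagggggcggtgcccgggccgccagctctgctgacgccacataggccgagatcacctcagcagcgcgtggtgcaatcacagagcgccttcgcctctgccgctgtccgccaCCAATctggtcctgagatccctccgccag
Msmo1: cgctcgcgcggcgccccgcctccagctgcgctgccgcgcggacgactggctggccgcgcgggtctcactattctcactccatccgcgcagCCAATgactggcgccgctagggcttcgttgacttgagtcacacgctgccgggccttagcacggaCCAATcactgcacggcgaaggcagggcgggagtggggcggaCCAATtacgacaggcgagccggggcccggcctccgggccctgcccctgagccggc
Sc5d: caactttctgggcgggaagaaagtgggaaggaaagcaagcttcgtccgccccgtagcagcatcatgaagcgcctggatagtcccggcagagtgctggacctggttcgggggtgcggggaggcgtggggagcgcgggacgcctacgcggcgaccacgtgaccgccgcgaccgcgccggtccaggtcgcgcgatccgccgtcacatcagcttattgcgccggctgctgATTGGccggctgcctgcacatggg
Hmgcs1: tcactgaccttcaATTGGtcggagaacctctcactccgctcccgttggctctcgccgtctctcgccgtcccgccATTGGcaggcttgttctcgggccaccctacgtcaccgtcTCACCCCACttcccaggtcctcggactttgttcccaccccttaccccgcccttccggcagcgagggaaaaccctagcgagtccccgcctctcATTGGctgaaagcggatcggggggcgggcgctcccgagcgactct

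Of the 18 enzyme genes in the set, 15 had an entry in the promoter table, and 14 of those 15 held CCAAT on a strand of this window, the exception being Acat2. Counted over promoters, since some genes have several, that is 14 of 18, where 33.8% of all 32851 promoters of the same length held it. TCACNCCAC, searched on both strands and not overlapping a CCAAT match, was present in Hmgcs1 alone among the 15 enzymes and in 1.05% of all promoters. Of 10 other members with an entry, 6 held CCAAT and 0 held TCACNCCAC. These matches describe letters in a window and no binding was measured.

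Vehicle was the group with the highest mean for 14 of the 17 measured enzymes. How often vehicle ranked highest over all genes was not counted. For 14 of the 28 members, 12 of them enzymes, every one of the 12 treated arrays lay below both vehicle arrays, against 4.3% of all genes. With a margin of 0.25 (log2) between the lowest vehicle array and every other array, Sqle was the only member left, and 0.0934% of all genes met that margin. No member lay above both vehicle arrays in all 12, where 2.46% of genes did. These counts all rest on the same 2 vehicle arrays.

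**Figure D1:**
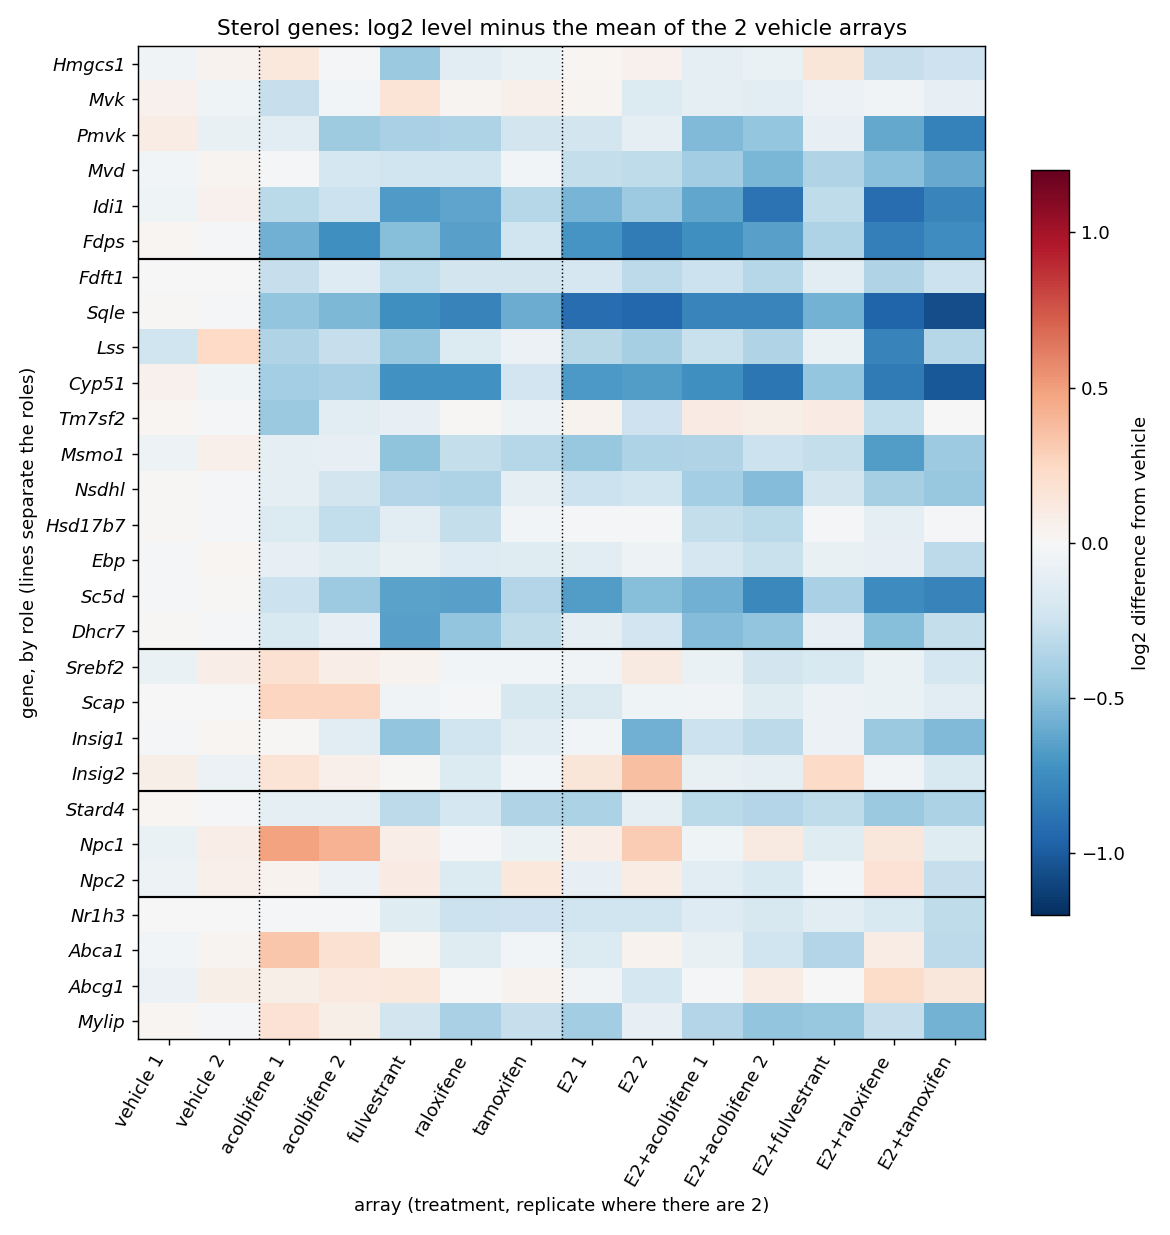
Log2 level of each of the 28 measured genes (rows, by role) on each of the 14 arrays (columns), minus the mean of the 2 vehicle arrays; blue is lower and red higher. The rows of Sqle, Cyp51, Fdps, Idi1 and Sc5d are blue in every treated array. Of the lower rows, from Srebf2 to Mylip, those of Stard4 and Nr1h3 are below 0 in every treated array and the others hold both colours.

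Array medians lay between 7.16 and 7.23. The mean of the 18 hybridization control probe sets was 9.86 to 10.04 on the E2 arrays and the 6 unreplicated arrays and 10.23 to 10.41 on the other 6 arrays, and the 3′ minus 5′ difference of Actb, a sign of RNA quality, was 0.24 and 0.28 with vehicle and 0.41 and 0.43 with E2. The raw-file names carry the code R136 on 7 arrays (E2 array 1 and the 6 unreplicated ones) and R137 on the other 7; what the code stands for is not stated. Markers of adipocytes (8 of 8 measured), luminal epithelium (7 of 7) and basal epithelium (8 of 8) were above the dim level, and skeletal muscle markers varied between arrays, with a summed level (log2) from 11.96 with E2+raloxifene to 14.29 with fulvestrant.

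After E2, 6 of the 17 enzymes fell relative to vehicle, and 0 rose. They were Sqle, squalene epoxidase and a rate-controlling step (1.90-fold), Fdps, farnesyl diphosphate synthase (1.71-fold), Cyp51, lanosterol demethylase (1.60-fold), Sc5d, a sterol desaturase (1.51-fold), Idi1, isopentenyl diphosphate isomerase (1.41-fold), and Msmo1, methylsterol monooxygenase (1.33-fold). Of all genes, 1.6% were called lower and 2.35% higher. None of the 11 members outside the enzymes passed the test on its brightest probe set. The median change was -0.26 (log2) over the 17 enzymes, -0.21 over the 28 members and -0.02 over all genes.

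In the mevalonate arm, which runs from acetyl-CoA to farnesyl diphosphate, 2 of 6 measured enzymes fell. Fdps was at 10.54 and 10.49 on the vehicle arrays and at 9.81 and 9.67 on the E2 arrays, a log2 change of -0.77 ± 0.095 (SE, n = 2 and 2, limma adjusted p = 0.00133). Both E2 arrays lay well below both vehicle arrays. Idi1 was at 9.99 and 10.10 with vehicle and at 9.49 and 9.61 with E2, a change of -0.50 ± 0.10 (SE, n = 2 and 2, limma adjusted p = 0.0265). A second, dimmer probe set of Idi1 had a change of +0.22 in the same comparison (limma adjusted p = 0.372), so the probe sets of this gene disagree. Hmgcs1, the synthase that commits acetyl units to the pathway, was at 11.48 and 11.57 with vehicle and at 11.55 and 11.58 with E2, and the arrays overlapped. Its change was 0.04, with a 95% interval from -0.16 to 0.23. That probe set had a mean level of 11.45. Probe sets of Hmgcs1 nearly as bright (11.43 and 11.35) had changes of 0.14 and -0.29 that did not pass (limma adjusted p of 0.436 and 0.0857). The sign thus depends on the probe set. Mvd, the decarboxylase before Idi1, had a change of -0.30 (limma adjusted p = 0.115) on its brightest probe set and -0.93 (limma adjusted p = 0.00377) on a dimmer probe set that the rule did not choose.

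In the squalene and sterol arm, which closes squalene into lanosterol and trims it to cholesterol, 4 of 11 enzymes fell and all 11 changes were negative. Sqle was at 10.44 and 10.42 with vehicle and at 9.52 and 9.49 with E2, a change of -0.93 ± 0.083 (SE, n = 2 and 2, limma adjusted p = 0.000157). The gap between the groups was many times the gap within either. Cyp51 was at 9.26 and 9.17 with vehicle and at 8.53 and 8.55 with E2, a change of -0.68 ± 0.088 (SE, n = 2 and 2, limma adjusted p = 0.00191). Its other probe sets were dimmer and had changes of -0.15 and -0.06 that did not pass. Sc5d was at 10.9698 and 10.9996 with vehicle and at 10.31 and 10.47 with E2, a change of -0.59 ± 0.10 (SE, n = 2 and 2, limma adjusted p = 0.0116), and its second probe set had -0.72 (limma adjusted p = 0.00118). Msmo1 was at 8.80 and 8.92 with vehicle and at 8.41 and 8.49 with E2, a change of -0.41 ± 0.090 (SE, n = 2 and 2, limma adjusted p = 0.0306). None of these 4 had arrays that overlapped between the groups. They had already passed the test, and how many of all genes separate this way was not counted. The other 7 had changes between -0.37 (Lss, lanosterol synthase) and -0.03 (Hsd17b7, a sterol ketoreductase) and did not pass.

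On the brightest probe set of each gene, none of the regulators and carriers passed after E2. On that probe set Srebf2 was at 10.05 and 10.21 with vehicle and at 10.09 and 10.23 with E2, and the arrays overlapped. A second probe set of Srebf2, with a lower mean level but above the dim level, had a change of -0.44 that passed (limma adjusted p = 0.0214), so the probe sets of this gene disagree. Insig1, an SREBP target that restrains SCAP, was at 10.43 and 10.47 with vehicle but at 10.42 and 9.87 with E2, so the E2 arrays differed from each other by 0.54, the widest gap between replicate arrays of any member. Insig2, the related restrainer of SCAP, had a change of 0.26 (limma adjusted p = 0.191). Its other probe sets, both above the dim level, had changes of 0.35 and 0.64 that passed (limma adjusted p of 0.0446 and 0.0170), so all 3 were positive and the call differs between them. Nr1h3 (the receptor LXR alpha) had -0.24 and Mylip -0.26, with limma adjusted p of 0.133 and 0.224. Among 27 other genes of sterol biology, 0 were lower and 1 was higher: Cyp7b1, an oxysterol hydroxylase, with a change of 0.48 (limma adjusted p = 0.0260). Its vehicle arrays, at 6.35 and 6.34, lay below the dim level, and its E2 arrays, at 6.96 and 6.68, lay above it.

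The calls after E2 rest on few arrays. Without vehicle array 2 the count was 3 (Fdps, Sqle and Cyp51), without any other array 4 to 6, and with a term for the raw-file code it was 4 (Fdps, Sqle, Cyp51 and Insig1). With the mean over all probe sets of a gene it was 5 (Mvd, Fdps, Sqle, Sc5d and Insig2). On E2 array 2 alone, which shares the code R137 with vehicle, the differences from the vehicle mean were -0.94 for Sqle, -0.84 for Fdps, -0.67 for Cyp51, -0.52 for Sc5d, -0.44 for Idi1 and -0.37 for Msmo1. In a whole gland, fewer cells of a type and less RNA per cell cannot be told apart. Beside the fall of the enzymes, lymphocyte markers fell in 2 of 7 (median -0.31, summed level 14.13 and 14.16 with vehicle and 13.73 and 13.83 with E2), macrophage markers in 2 of 8 (median -0.13, summed level 14.49 and 14.53 with vehicle and 14.36 and 14.38 with E2), and adipocyte markers in 1 of 8, with 1 of 8 higher (median -0.00, summed level 16.06 and 16.14 with vehicle and 16.07 and 16.22 with E2). Basal epithelial and smooth muscle markers were higher in 3 of 8 (median 0.30, summed level 12.96 and 13.01 with vehicle and 13.28 and 13.27 with E2), luminal markers in 1 of 7 (median 0.14, summed level 12.68 and 12.64 with vehicle and 12.82 and 12.71 with E2), and fibroblast markers in 1 of 6 (median -0.02, summed level 15.77 and 15.83 with vehicle and 15.71 and 15.85 with E2). The hybridization controls and the Actb difference given above also separated E2 from vehicle. The part of any of these in the enzyme result was not tested.

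**Figure D2:**
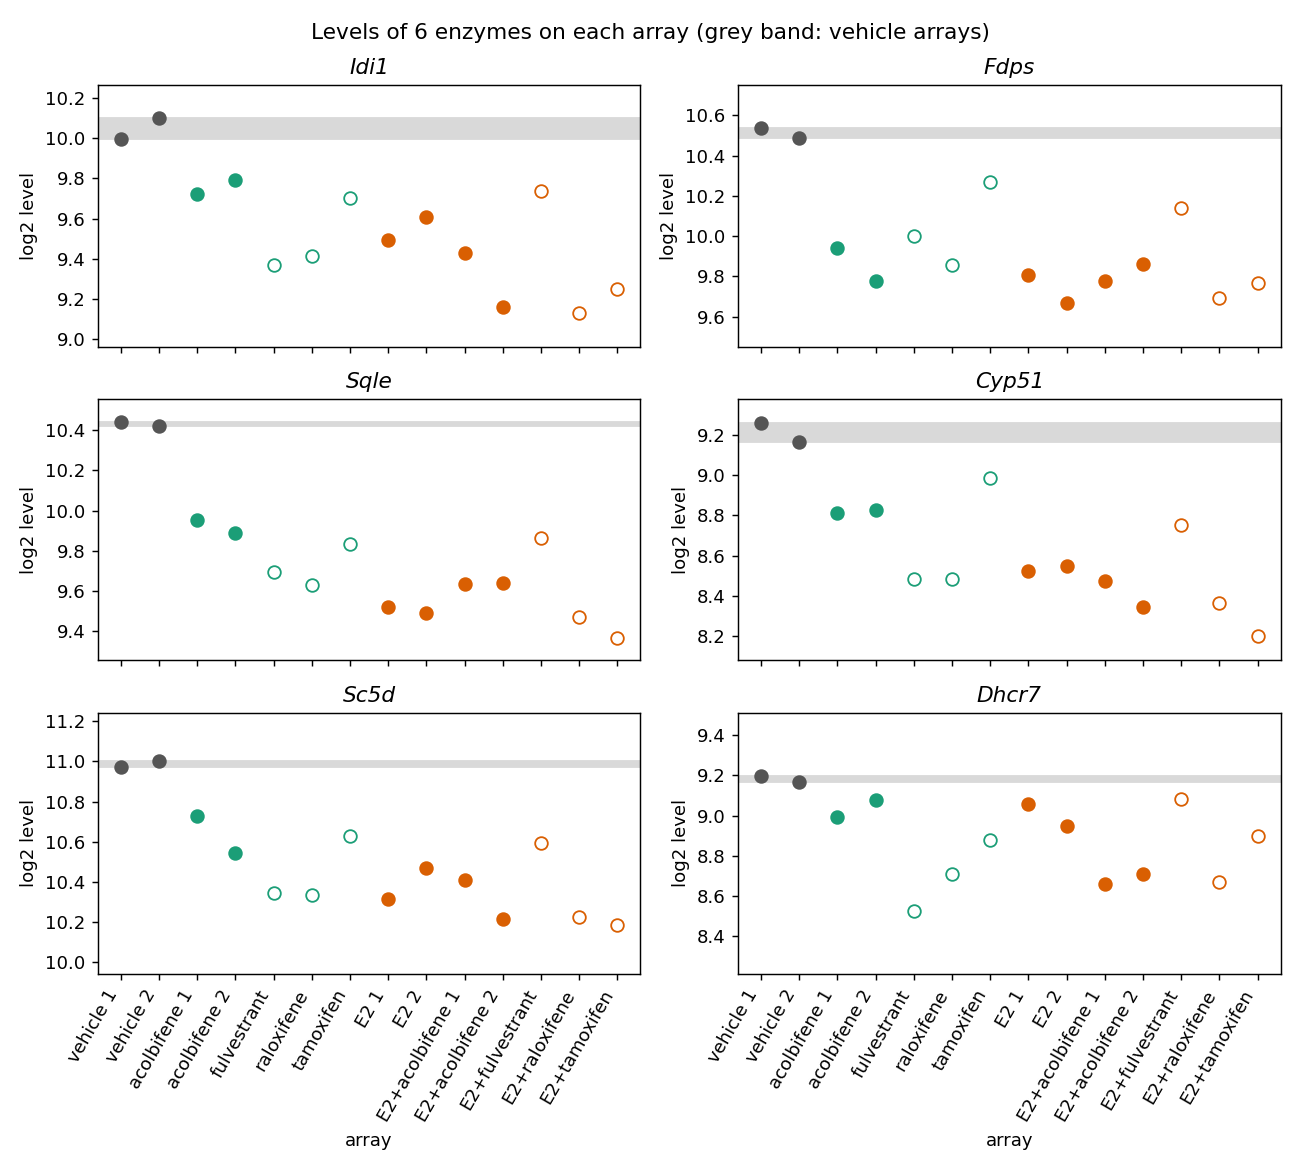
Log2 level of 6 enzymes on each of the 14 arrays; grey points and band are the vehicle arrays, green a blocker alone, orange E2 alone or with a blocker, and open circles are groups with 1 array. For Sqle, Fdps, Cyp51, Idi1, Sc5d and Dhcr7 every treated array lies below the vehicle band, and E2+fulvestrant sits above the other arrays that received E2.

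Acolbifene given without E2 also lowered 2 members, both enzymes: Fdps (1.57-fold) and Sqle (1.42-fold). Of all genes 0.242% were called lower and 0.544% higher. Fdps was at 9.94 and 9.78 on the acolbifene arrays, a change from vehicle of -0.65 ± 0.095 (SE, n = 2 and 2, limma adjusted p = 0.0146). A second probe set of Fdps, below the dim level at a mean of 4.60, had -0.23 and did not pass (limma adjusted p = 0.525). With the mean over all probe sets of a gene the call of Fdps was lost. Sqle was at 9.95 and 9.89, a change of -0.51 ± 0.083 (SE, n = 2 and 2, limma adjusted p = 0.0225). The acolbifene arrays lay below both vehicle arrays for both genes, and how many of all genes show this was not counted. The other 15 enzymes did not pass; 16 of 17 changes were negative, with a median of -0.23, against 0.03 over all genes. This comparison shares its vehicle arrays with the comparison of E2. Both calls were lost, leaving 0, when either vehicle array or either acolbifene array was left out, and the count was 4 without dim probe sets and 5 with an intensity trend in the variance. Keratinocyte markers were lower in 2 of 8 in the same comparison (median -0.21, summed level 10.72 and 10.69 with vehicle and 10.56 and 10.54 with acolbifene), and macrophage markers higher in 2 of 8 (median 0.25, summed level 14.53 and 14.49 with vehicle and 14.75 on both acolbifene arrays). Their part in the enzyme values was not tested.

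Several sterol-handling genes lay higher in acolbifene than in vehicle without passing. Npc1, which moves cholesterol out of lysosomes, was at 8.00 and 8.16 with vehicle and at 8.56 and 8.49 with acolbifene, a difference of 0.45 (limma adjusted p = 0.0871). Scap was at 9.99 and 9.97 with vehicle and at 10.24 on both acolbifene arrays, a difference of 0.26 (limma adjusted p = 0.192). Abca1 was at 12.12 and 12.18 with vehicle and at 12.48 and 12.33 with acolbifene, a difference of 0.26 (limma adjusted p = 0.257). These 3 are named because they had the largest rises of any member in this comparison. Their arrays did not overlap, but how many of all genes show that was not counted. The part of the macrophage and keratinocyte markers given above in these values was not tested either.

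With E2 and acolbifene together 8 enzymes fell relative to vehicle and 0 members rose. They span the route: Cyp51 (1.75-fold), Sqle (1.73-fold), Idi1 (1.68-fold), Fdps (1.61-fold), Sc5d (1.59-fold), Dhcr7, a reductase at the end of the pathway (1.41-fold), Mvd (1.40-fold) and Nsdhl, a sterol dehydrogenase (1.38-fold). Of all genes 0.495% were called lower and 0.599% higher. The median was -0.46 over the 17 enzymes, -0.30 over the 28 members and -0.02 over all genes. Lymphocyte markers were lower in 1 of 7 (median -0.37, summed level 13.67 and 13.63, against 14.16 and 14.13 with vehicle), and skeletal muscle markers had a median of 0.66 with none of 10 called (summed level 13.61 on both vehicle arrays and 14.26 and 14.15 with E2+acolbifene). Adipocyte markers were lower in 1 of 8 (median -0.02, summed level 16.06 and 16.14 with vehicle and 16.13 and 16.06 with E2+acolbifene), macrophage markers in 1 of 8 (median -0.14, summed level 14.53 and 14.49, then 14.39 and 14.37) and endothelial markers in 1 of 6 (median -0.18, summed level 12.98 and 12.99, then 12.84 and 12.76). Luminal markers were higher in 1 of 7 (median 0.09, summed level 12.68 and 12.64, then 12.79 and 12.70) and keratinocyte markers in 1 of 8 (median 0.10, summed level 10.72 and 10.69, then 10.93 and 10.88). The part of these lists was not tested.

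Cyp51 was at 8.47 and 8.35 on the E2+acolbifene arrays, a change of -0.80 ± 0.088 (SE, n = 2 and 2, limma adjusted p = 0.00260). Sqle was at 9.64 on both, a change of -0.79 ± 0.083 (SE, n = 2 and 2, limma adjusted p = 0.00199). Idi1 was at 9.43 and 9.16, a change of -0.75 ± 0.10 (SE, n = 2 and 2, limma adjusted p = 0.00975), and Fdps at 9.78 and 9.86, a change of -0.69 ± 0.095 (limma adjusted p = 0.00938). All 4 lay below both vehicle arrays on both arrays. These genes had already passed the test, and the share of all genes that separate so was not counted. Sc5d was at 10.41 and 10.22, with a change of -0.67 (limma adjusted p = 0.0173). Dhcr7 was at 9.20 and 9.17 with vehicle and at 8.66 and 8.71 with E2+acolbifene, with a change of -0.50 (limma adjusted p = 0.0304). Mvd and Nsdhl changed by -0.49 and -0.46 (limma adjusted p of 0.0459 and 0.0382). These last values lie close to the threshold, and the count was 2 without vehicle array 1, vehicle array 2 or E2+acolbifene array 2, and 3 without E2+acolbifene array 1. Sqle and Cyp51 kept their call in all 15 alternatives run. Among the probe sets that the rule did not choose, those above the dim level that passed were of Fdft1, squalene synthase (-0.61, limma adjusted p = 0.0214), Mvd (-0.70, limma adjusted p = 0.0416) and Sc5d (-0.71, limma adjusted p = 0.00462), where the brightest probe set of Fdft1 had -0.30 and did not pass (limma adjusted p = 0.121). Other probe sets of Cyp51, Idi1 and Sc5d, also above the dim level, had -0.45, -0.40 and -0.50 and did not pass (limma adjusted p of 0.120, 0.136 and 0.112). Further probe sets of Fdft1 above the dim level had 0.13 and 0.14 and did not pass (limma adjusted p of 0.649 and 0.390), so the probe sets of this gene disagree. Of the 27 other sterol genes 1 was higher, the sterol exporter Abcg5 (0.48, limma adjusted p = 0.0344), and 0 were lower. Abcg5 was at 5.02 and 5.07 with vehicle and at 5.56 and 5.50 with E2+acolbifene. These levels are all below the dim level, so its call rests on weak signal.

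Adding acolbifene to E2 moved no member past the threshold in limma's test on its brightest probe set, where 3.74% of all genes were called. An unadjusted p under 0.05 in that test was held by 6 of 28 members and by 4623 of 18193 genes. The differences nearest to passing were those of Dhcr7 (-0.32, 95% interval -0.51 to -0.13, limma adjusted p = 0.0637), Insig2 (-0.36, 95% interval -0.58 to -0.14, limma adjusted p = 0.0698) and Hsd17b7 (-0.28, 95% interval -0.47 to -0.09, limma adjusted p = 0.0852). For Sqle the difference was 0.13 (95% interval -0.05 to 0.32) and for Fdps 0.08 (95% interval -0.13 to 0.29). Among the probe sets that the rule did not choose, 1 each of Fdft1, Idi1 and Insig2 passed, all above the dim level, with changes of -0.52, -0.61 and -0.38 (limma adjusted p of 0.0258, 0.0307 and 0.0373). The brightest probe sets of Fdft1 and Idi1 had -0.04 and -0.26 and did not pass (limma adjusted p of 0.807 and 0.165), so the call for these 3 genes depends on the probe set. Other probe sets of Fdft1, also above the dim level, had 0.45 and 0.29 and did not pass (limma adjusted p of 0.0937 and 0.0855). The sign for Fdft1 thus depends on the probe set too. The count was 2 without dim probe sets, 3 with an intensity trend and 1 with the mean over all probe sets of a gene.

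Adding E2 to acolbifene gave a broader list, in which 8 members were lower and 0 higher: the enzymes Idi1, Cyp51, Mvd and Dhcr7, and Mylip, Abca1, Npc1 and Scap. This is a comparison in which many genes moved, with 7.82% of all genes called lower and 3.77% higher. Mylip was at 11.89 and 11.78 with acolbifene and at 11.36 and 11.24 with E2+acolbifene, a change of -0.53 ± 0.11 (SE, n = 2 and 2, limma adjusted p = 0.0247). Abca1, the cholesterol export pump, was at 12.06 and 11.91 with E2+acolbifene, a change of -0.42 (limma adjusted p = 0.0359), and its other probe sets changed by -0.45 and -0.57, which also passed. Npc1 was at 8.02 and 8.19, a change of -0.42 (limma adjusted p = 0.0388), and Scap at 9.94 and 9.83, a change of -0.36 (limma adjusted p = 0.0366). For these 4, which had already passed the test, the E2+acolbifene arrays lay below both acolbifene arrays. How many of all genes show this was not counted. The vehicle arrays of Npc1 overlapped those of E2+acolbifene, and those of Scap lay between the acolbifene and the E2+acolbifene arrays. Idi1, Cyp51, Mvd and Dhcr7 changed by -0.46, -0.41, -0.37 and -0.35 (limma adjusted p of 0.0305, 0.0270, 0.0398 and 0.0373). Second probe sets of Idi1, Cyp51 and Mvd, above the dim level, had -0.38, -0.29 and -0.17 and did not pass (limma adjusted p of 0.0764, 0.163 and 0.418). Sqle, with -0.28 (limma adjusted p = 0.0536), and Fdps, with -0.04 (95% interval -0.25 to 0.17), did not pass. Among the probe sets that the rule did not choose, those of Sc5d (-0.43), Stard4, a sterol carrier (-0.46), Npc2, a lysosomal sterol carrier (-0.36), and Srebf2 (-0.32) also passed (limma adjusted p of 0.0217, 0.0227, 0.0401 and 0.0490), while the brightest probe sets of these 4 genes did not.

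Of the 27 other sterol genes 9 were lower in the same comparison: Srebf1 (-0.48), the HDL receptor Scarb1 (-0.41), the SREBP protease Mbtps2 (-0.41), the lysosomal lipase Lipa (-0.40), Pltp (-0.38), Lrp1 (-0.36), Cyp7b1 (-0.36), Nceh1 (-0.33) and Erlin1 (-0.33). For Cyp7b1 the E2+acolbifene arrays, at 6.44 and 6.42, lay below the dim level. Macrophage markers moved alongside: 5 of 8 were lower, with a median of -0.43, and their summed level was 14.75 on both acolbifene arrays and 14.39 and 14.37 on the E2+acolbifene arrays. Fibroblast markers were lower in 2 of 6 (median -0.28, summed level 16.06 and 16.03 with acolbifene and 15.82 and 15.73 with E2+acolbifene) and keratinocyte markers higher in 4 of 8 (median 0.38, summed level 10.56 and 10.54 with acolbifene and 10.93 and 10.88 with E2+acolbifene). Adipocyte markers were lower in 1 of 8 (median -0.14, summed level 16.25 and 16.18, then 16.13 and 16.06) and lymphocyte markers in 1 of 7 (median -0.16, summed level 14.03 and 13.97, then 13.67 and 13.63). Luminal markers were higher in 1 of 7 (median -0.09, summed level 12.84 and 12.79, then 12.79 and 12.70), skeletal muscle markers in 1 of 10 (median 0.74, summed level 13.52 and 13.46, then 14.26 and 14.15), and basal markers higher in 2 of 8 and lower in 1 (median 0.00, summed level 13.15 and 13.11, then 13.13 and 13.07). No defining macrophage marker was below the dim level, and the part of these cells in the values of Abca1, Mylip, Npc1 and Scap was not tested. The count of 8 fell to 0 when the deposited values were quantile-normalized again, and to 0, 0, 1 and 0 without acolbifene array 1, acolbifene array 2, E2+acolbifene array 1 and E2+acolbifene array 2.

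**Figure D3:**
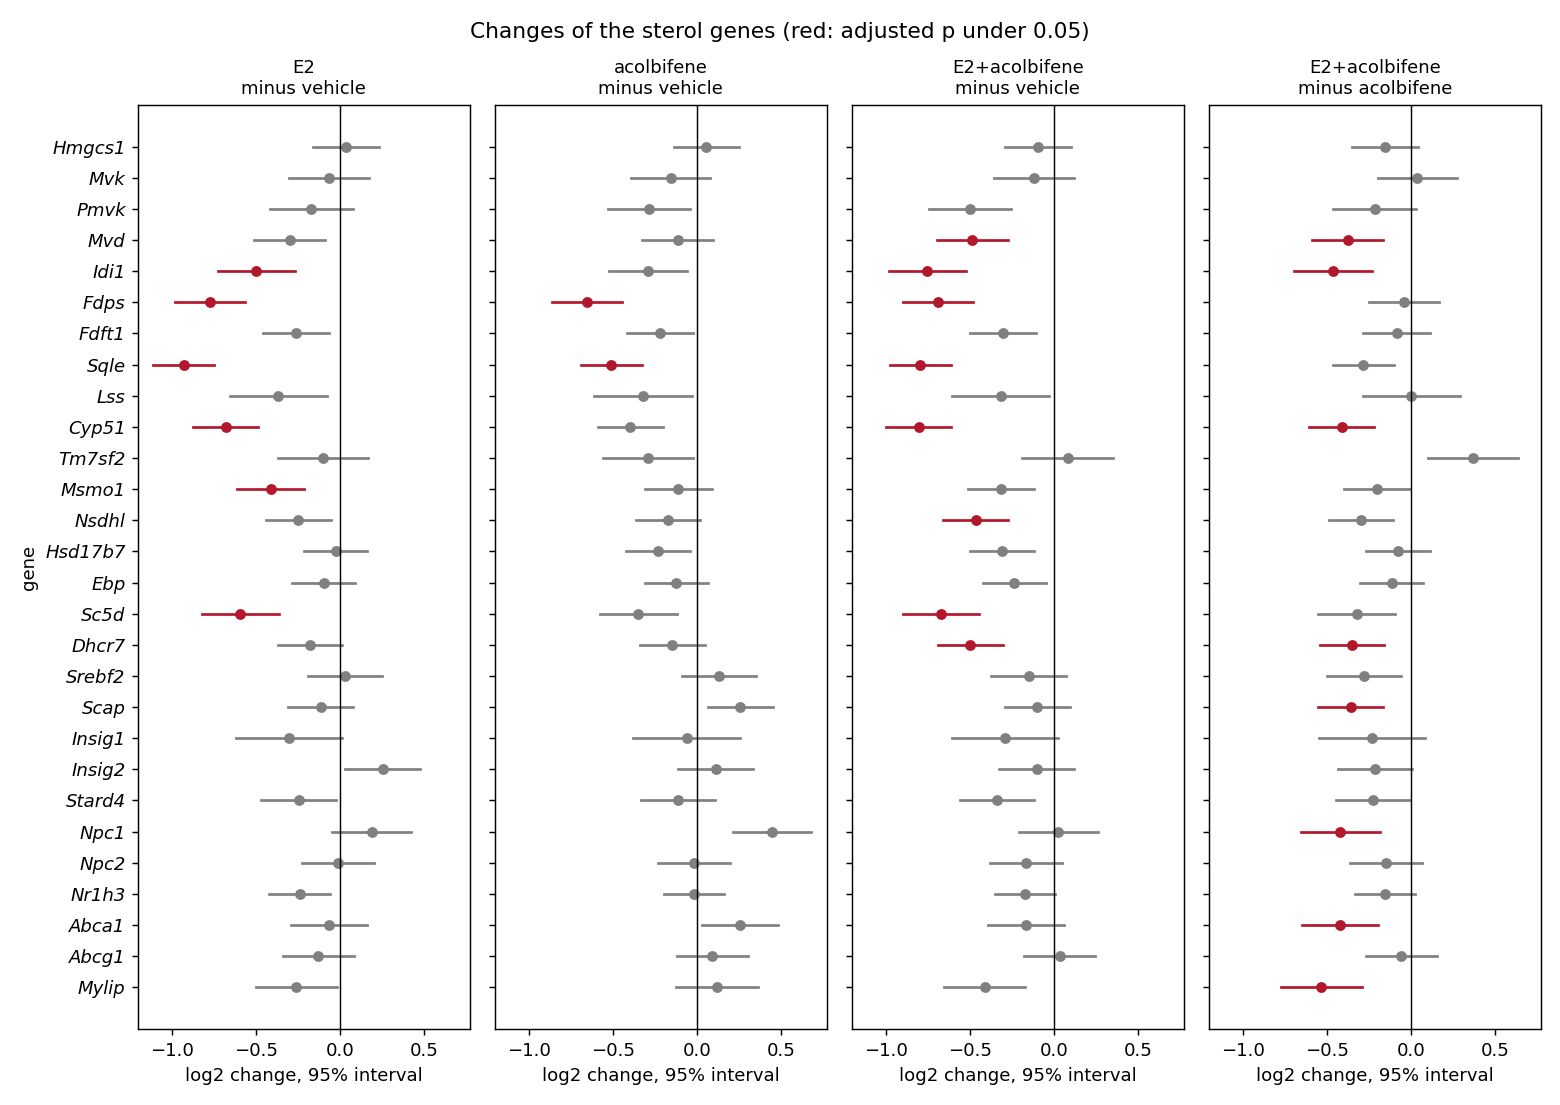
Log2 change of each of the 28 genes with its 95% interval in 4 comparisons of groups with 2 arrays each; red marks limma adjusted p under 0.05. Red points are at negative values in all 4 panels, 6, 2, 8 and 8 of them from left to right, and only the last panel has red points below Dhcr7.

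**Figure D4:**
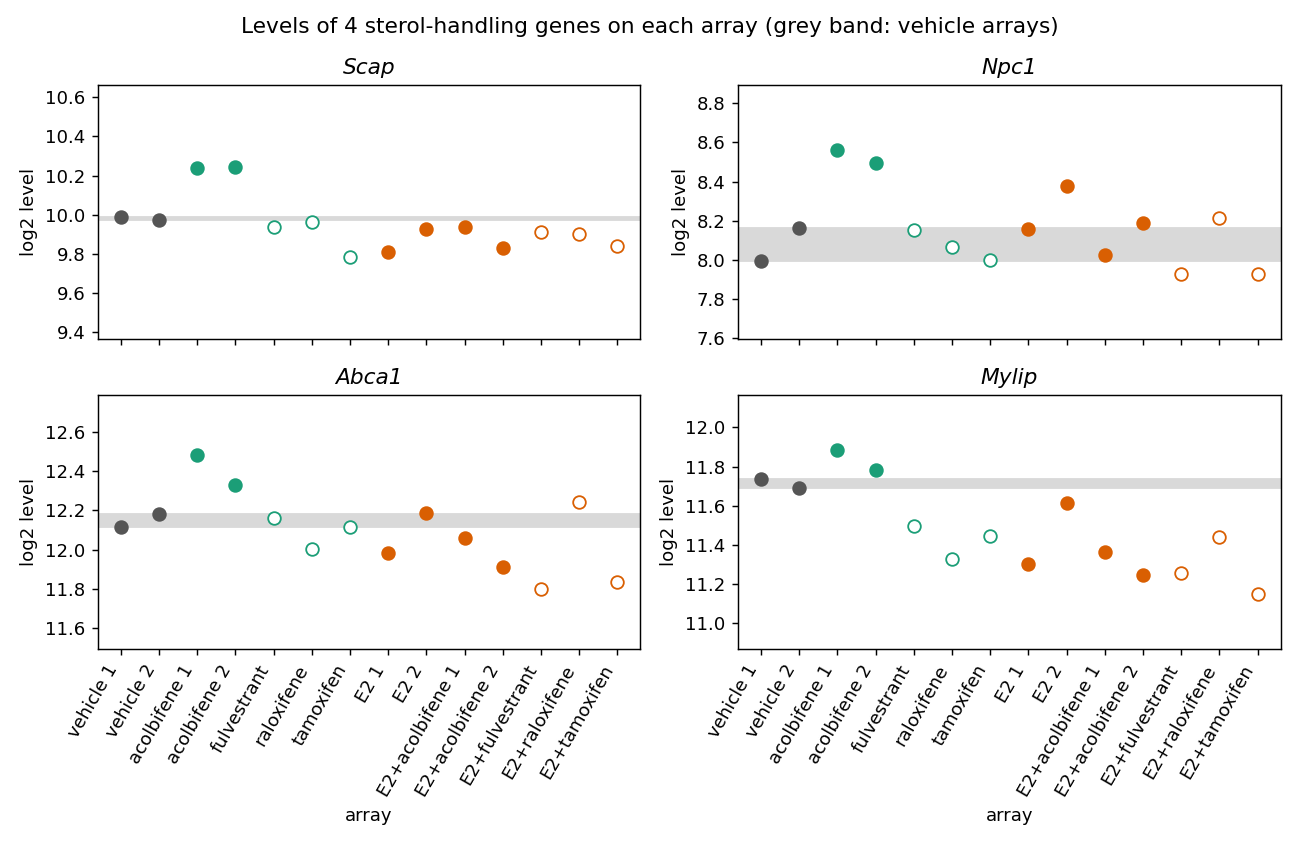
Log2 level of Scap, Npc1, Abca1 and Mylip on each of the 14 arrays, with the colours of the enzyme plot (grey band: vehicle arrays; open circles: groups with 1 array). The acolbifene arrays are the highest of all 14 for each of these 4 genes. They are the members outside the enzymes called lower in E2+acolbifene than in acolbifene, so high acolbifene arrays are partly set by that choice. None of the 4 passed for acolbifene minus vehicle, and how often acolbifene ranks highest over all genes was not counted.

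The effect of acolbifene on its own and its effect on top of E2 were compared directly, as the difference between E2+acolbifene minus E2 and acolbifene minus vehicle. It passed for 3 members on their brightest probe sets, where 5.12% of all genes were called in either direction. For Fdps acolbifene minus vehicle was -0.65 and E2+acolbifene minus E2 was 0.08, a difference of 0.74 ± 0.13 (SE, limma adjusted p = 0.0189). For Sqle the same values were -0.51 and 0.13, a difference of 0.64 ± 0.12 (SE, limma adjusted p = 0.0186). Both enzymes were lower with acolbifene than with vehicle and not lower with E2+acolbifene than with E2. For Npc1 the values were 0.45 and -0.16, a difference of -0.61 ± 0.15 (SE, limma adjusted p = 0.0469). The count was 0 without vehicle array 1, E2 array 2 or E2+acolbifene array 2, and 1 without acolbifene array 1. A dimmer probe set of Mvd also passed (0.76, limma adjusted p = 0.0472), while its brightest had -0.08 (limma adjusted p = 0.759). In this same difference macrophage markers were lower in 2 of 8 (median -0.23), basal epithelial and smooth muscle markers in 2 of 8 (median -0.28), luminal markers in 1 of 7 (median -0.19) and fibroblast markers in 1 of 6 (median -0.30). Keratinocyte markers were higher in 2 of 8 (median 0.20, summed level 10.82 on both E2 arrays), and skeletal muscle markers had a median of 1.00 with none of 10 called, where the E2 arrays lay at summed levels of 12.76 and 14.10. The other summed levels in the 4 groups are those given above, and the part of these lists in the values of Fdps, Sqle and Npc1 was not tested.

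Fulvestrant, raloxifene and tamoxifen were each measured on 1 array alone and 1 with E2. The limma fit for them holds all 14 arrays and a term for the raw-file code, and assumes that a lone array varies like the replicated groups. No member passed in any of 15 comparisons. Across these, 1 to 13 members had an unadjusted p under 0.05, and 567 to 2562 of 18193 genes did. Against vehicle such a comparison passes through the E2 arrays, the one group that holds both codes. The levels are therefore given first as measured, with no test.

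Sqle was at 9.69 with fulvestrant, 9.63 with raloxifene and 9.84 with tamoxifen, and at 9.86 with E2+fulvestrant, 9.47 with E2+raloxifene and 9.37 with E2+tamoxifen. All 6 values lay below both vehicle arrays, and those of E2+raloxifene and E2+tamoxifen below both arrays of E2 alone. Cyp51 was at 8.49, 8.49 and 8.98 with fulvestrant, raloxifene and tamoxifen and at 8.75, 8.36 and 8.20 with E2+fulvestrant, E2+raloxifene and E2+tamoxifen. Fdps was at 10.00, 9.86 and 10.27 with the blockers in that order, and at 10.14, 9.69 and 9.77 with E2 added. Tamoxifen and E2+fulvestrant thus held the highest levels of Fdps and Cyp51 among the 6 lone arrays. Hmgcs1, which on its brightest probe set was close to vehicle with E2, was lowest of all 14 arrays with fulvestrant (11.08) and highest with E2+fulvestrant (11.67). Dhcr7 was also lowest with fulvestrant (8.53), against 9.08 with E2+fulvestrant.

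The median difference from the vehicle mean over the 17 enzymes was -0.13 with E2+fulvestrant, -0.22 with tamoxifen, -0.23 with acolbifene, -0.26 with E2, -0.29 with raloxifene, -0.44 with E2+tamoxifen, -0.45 with fulvestrant, -0.46 with E2+acolbifene and -0.51 with E2+raloxifene. On single arrays the same median was -0.26 and -0.31 for the E2 arrays, -0.26 and -0.22 for acolbifene and -0.41 and -0.47 for E2+acolbifene, so neighbours in this order that differ by about the gap between replicate arrays cannot be ranked. E2+raloxifene and E2+tamoxifen each held the lowest mean for 6 of the 17 enzymes. How often these groups ranked lowest over all genes was not counted.

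**Figure D5:**
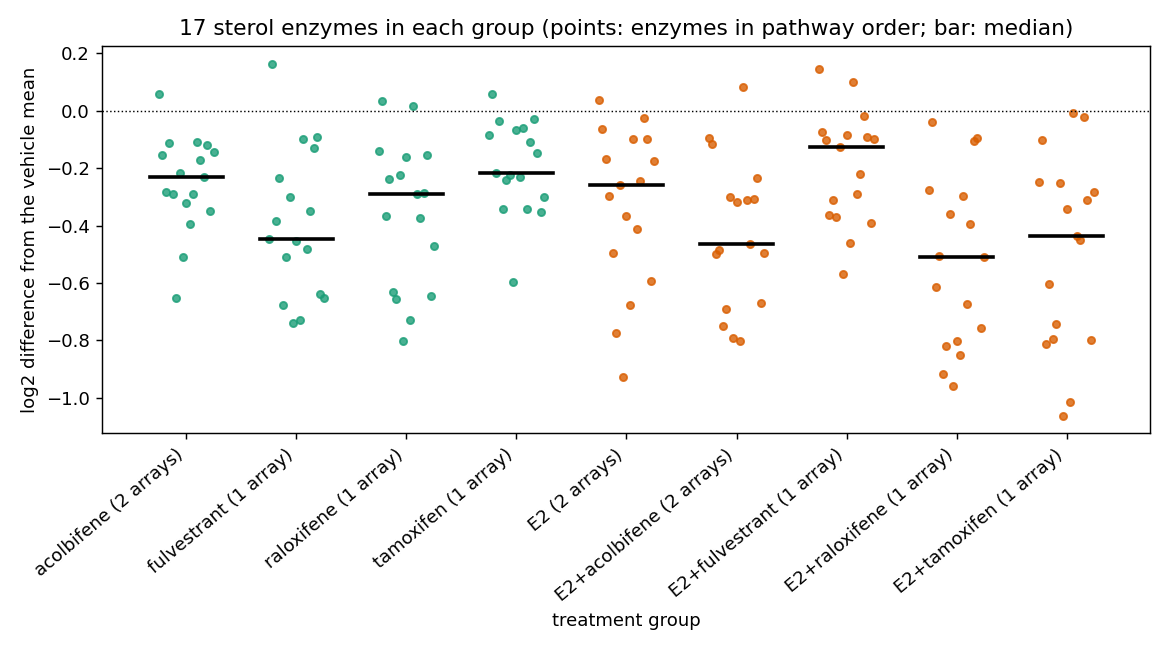
Log2 difference of each of the 17 enzymes (points, in pathway order within a group) from the vehicle mean, by treatment group, with the median as a bar; green is a blocker alone and orange holds E2. The bars lie between -0.51 (E2+raloxifene) and -0.13 (E2+fulvestrant), all below 0.

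Against vehicle, all 17 enzymes had negative fitted values for each of fulvestrant, raloxifene and tamoxifen, with medians of -0.41, -0.29 and -0.20. As measured, without the code term, 16, 15 and 16 of the 17 lay below the vehicle mean, so the term changed some signs. Over all genes 8925, 9812 and 9223 of 18193 fitted values were negative. In limma's test 0 members passed in each, where 0.247%, 0.0055% and 0.0165% of all genes did. An unadjusted p under 0.05 was held by 10, 7 and 3 members and by 963, 811 and 845 of 18193 genes. The largest enzyme differences were -0.77 for Sqle with fulvestrant (95% interval -1.12 to -0.42, limma adjusted p = 0.224), -0.83 for Sqle with raloxifene (95% interval -1.19 to -0.48, limma adjusted p = 0.333) and -0.63 for Sqle with tamoxifen (95% interval -0.98 to -0.28, limma adjusted p = 0.852). Insig1 shows how far the code term can move a value: with fulvestrant its fitted difference was -1.01 (limma adjusted p = 0.0850), while the plain difference from the vehicle mean was -0.47. Without the code the counts were 3 for fulvestrant and 2 for raloxifene.

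E2 was also compared with its absence under each blocker. With fulvestrant 14 of 17 enzymes were higher when E2 was added (median 0.19), with raloxifene 15 of 17 were lower (median -0.14), and with tamoxifen 14 of 17 were lower (median -0.27); over all genes the medians were -0.00, 0.03 and -0.04. No member passed in limma's test, with backgrounds of 0.599%, 0.0715% and 0.181% of genes called. An unadjusted p under 0.05 was held by 5, 3 and 11 members and by 1535, 802 and 1711 of 18193 genes. For Hmgcs1 the difference was 0.59 with fulvestrant (95% interval 0.30 to 0.88), -0.14 with raloxifene (95% interval -0.43 to 0.15) and -0.16 with tamoxifen (95% interval -0.45 to 0.12). For Cyp51 it was 0.27 with fulvestrant (95% interval -0.02 to 0.55), -0.12 with raloxifene (95% interval -0.41 to 0.16) and -0.79 with tamoxifen (95% interval -1.07 to -0.50, limma adjusted p = 0.0630). The Cyp51 value with tamoxifen was the nearest to passing, and 7 members passed there with an intensity trend.

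The differences between those E2 effects were tested in 3 comparisons added after the values had been seen, and 0 members passed in each. Between fulvestrant and tamoxifen 9782 of all 18193 genes were positive. Of the 17 enzymes 16 were positive, with a median of 0.54. The largest was Cyp51 at 1.05 (95% interval 0.65 to 1.46, limma adjusted p = 0.215), where 0.044% of all genes were called. There 11 members and 1207 of 18193 genes had an unadjusted p under 0.05. Between fulvestrant and raloxifene the enzyme median was 0.36 (0.022% of genes called), and between raloxifene and tamoxifen it was 0.17 (0.0055% of genes called). In these 2 comparisons 10 and 4 members, and 1388 and 1706 of 18193 genes, had an unadjusted p under 0.05. With an intensity trend the counts were 8, 5 and 2. Keratinocyte markers had their highest summed level with E2+fulvestrant (11.42, against 10.69 and 10.72 with vehicle), and their part in the enzyme values of that array was not tested.

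Against E2 alone, E2+fulvestrant had an enzyme median of 0.12 with 15 of 17 positive. E2+raloxifene had -0.16 with 16 of 17 negative and E2+tamoxifen -0.15 with 15 of 17 negative. Over all 18193 genes 9936 were positive with E2+fulvestrant, 8048 negative with E2+raloxifene and 10139 negative with E2+tamoxifen. No member passed in limma's test, with 0.011%, 0.121% and 0.0055% of genes called. An unadjusted p under 0.05 was held by 2, 6 and 4 members and by 658, 1400 and 2562 of 18193 genes. These comparisons rest on E2 array 1, the E2 array that shares the code R136.

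The compounds differ in structure: fulvestrant is a steroid with a long side chain, raloxifene a benzothiophene and tamoxifen a triphenylethylene. They were compared in 6 pairs at the same time after treatment, 3 without and 3 with E2, and whether the doses match is not known, so a difference may be one of dose. With p-values adjusted over the 6 pairs and all probe sets no member passed (smallest limma adjusted p = 0.449). Given with E2, fulvestrant stood above tamoxifen for 17 of 17 enzymes (median 0.24) and above raloxifene for 16 of 17 (median 0.39). Raloxifene minus tamoxifen had 9 of 17 negative and 8 positive (median -0.03). Over all 18193 genes 10501, 8616 and 10853 differences were positive in these pairs, in that order. Each group had 1 array, so the 17 enzymes are not replicates of a treatment. Among the members the largest difference between E2+fulvestrant and E2+tamoxifen was 0.71, for Pmvk, phosphomevalonate kinase (95% interval 0.34 to 1.08). Between E2+fulvestrant and E2+raloxifene it was 0.72, for Lss (95% interval 0.27 to 1.17). Between E2+raloxifene and E2+tamoxifen the largest was -0.46 for Lss (95% interval -0.91 to -0.01). Backgrounds for these 3 pairs, adjusted within each, were 0.055%, 0.132% and 0.187% of genes, with 0 members called in each. An unadjusted p under 0.05 was held by 9, 13 and 4 members and by 1832, 1232 and 2027 of 18193 genes.

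Without E2, fulvestrant and raloxifene differed little over the enzymes (9 of 17 negative, median -0.00), the largest difference being -0.31 for Hmgcs1 (95% interval -0.60 to -0.02). Tamoxifen stood above fulvestrant for 15 of 17 enzymes and for 8583 of 18193 genes. It stood above raloxifene for 14 of 17 enzymes and for 9958 of 18193 genes. The largest enzyme difference was that of Cyp51 in both pairs. It was -0.50 for fulvestrant minus tamoxifen (95% interval -0.79 to -0.21) and -0.50 for raloxifene minus tamoxifen (95% interval -0.79 to -0.21). With 1 array a group the median half-width of an interval was 0.29 over the members, and differences as large as 0.72 did not pass after adjustment. Of all genes 0.055%, 0.077% and 0% were called for fulvestrant minus raloxifene, fulvestrant minus tamoxifen and raloxifene minus tamoxifen, with 0 members in each. An unadjusted p under 0.05 was held by 1, 4 and 2 members and by 567, 770 and 714 of 18193 genes.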

How the data were processed

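Values are the log2 expression levels the authors deposited for 14 arrays; the submitters' processing notes name RMA, with no version. RMA compresses weak signals. The design text names U74Av2 arrays, but the 45101 probe sets match the supplied annotation of another mouse array. After 64 control probe sets were removed, 45037 were tested: 34945 had 1 gene symbol, 932 several and 9160 none here.

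Tests used limma 3.58.1 in R 4.3.3 (lmFit, eBayes, Benjamini-Hochberg over 45037 probe sets, called at an adjusted p under 0.05). For replicated groups, 6 comparisons used their 8 arrays; the other 15, and 3 added later, used 14 arrays and a term for the raw-file code. Scripts were tested on simulated data. The number of arrays limits the precision. Groups came from the labels' treatments.

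Every member could be named in every comparison, with full statistics for those that passed. Members and lists were chosen with earlier results of these data known. Alternatives were a filter on dim probe sets, a second quantile normalization, an intensity trend, the mean of a gene's probe sets, a replicate block, the raw-file code, and leaving out arrays. The unit of the E2 dose in the labels is doubtful, so no dose is given. Equal replicate numbers did not pair arrays.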

Additional observations from a re-analysis of the deposited data

Results flagged for a closer look

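Of the 28 members, 3 were picked out because the acolbifene effect differed between mice with and without E2, by the test of that difference in limma. The same test called 5.12% of all genes. All 3 calls could be lost by leaving out 1 array, as given above. The differences were 0.74 for Fdps, 0.64 for Sqle and -0.61 for Npc1 (log2, limma adjusted p of 0.0189, 0.0186 and 0.0469). Without E2, both acolbifene arrays lay below both vehicle arrays for Fdps and Sqle and above both for Npc1. With E2, the arrays of E2+acolbifene and E2 overlapped for Fdps and Npc1, and for Sqle both E2+acolbifene arrays lay above both E2 arrays. The share of all genes whose arrays separate in these ways was not counted. Macrophage and basal markers were each lower in 2 of 8 in the same difference (median -0.23 and -0.28) and keratinocyte markers higher in 2 of 8 (median 0.20), and the part of these lists was not tested.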

How the results depend on the processing

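The counts of members called are given here under each alternative that moved them by over 1.5 times. Leaving out 1 array gave 3 to 6 for E2 minus vehicle, 0 to 2 for acolbifene minus vehicle, 2 to 8 for E2+acolbifene minus vehicle, 0 to 7 for E2+acolbifene minus acolbifene, 0 to 3 for the acolbifene effects' difference, and 0 throughout for the other comparisons. Without dim probe sets the counts were 4 for acolbifene minus vehicle, 2 for E2+acolbifene minus E2, 1 for fulvestrant minus vehicle and 1 for E2+tamoxifen minus tamoxifen. An intensity trend gave 5 for acolbifene minus vehicle, 3 for E2+acolbifene minus E2, 13 for E2+acolbifene minus acolbifene and 5 for the acolbifene effects' difference. It gave 4, 3 and 1 for fulvestrant, raloxifene and tamoxifen minus vehicle, 2 for E2+tamoxifen minus E2, 4 for E2+fulvestrant minus fulvestrant and 7 for E2+tamoxifen minus tamoxifen. It gave 5 for E2+fulvestrant minus E2+raloxifene, 3 for E2+fulvestrant minus E2+tamoxifen, 2 for E2+raloxifene minus E2+tamoxifen, and 8, 5 and 2 for the added comparisons. The mean over all probe sets of a gene gave 1 for E2+acolbifene minus E2 and 1 for the acolbifene effects' difference. Without the raw-file code the counts were 3 and 2 for fulvestrant and raloxifene minus vehicle, 1 for E2+tamoxifen minus E2 and 1 for E2+tamoxifen minus tamoxifen. A second quantile normalization gave 0 for E2+acolbifene minus acolbifene. The cause of these shifts was not tested.

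Of 27 called gene results, 405 alternatives were run: 277 kept the call, 128 lost it and 0 reversed. Fdps and Sqle for E2 minus vehicle, and Sqle and Cyp51 for E2+acolbifene minus vehicle, kept it in all 15. Same-numbered arrays did not deviate together (r from -0.12 to 0.12 over all probe sets), so the numbers do not pair the samples. With the replicate block the counts were 4 for E2+acolbifene minus acolbifene, 6 for E2 minus vehicle, 2 for acolbifene minus vehicle, 0 for E2+acolbifene minus E2, 6 for E2+acolbifene minus vehicle and 3 for the acolbifene effects' difference. Not run were fulvestrant, raloxifene and tamoxifen minus vehicle without either E2 array, where the code and the group cannot be told apart, and each E2 combination minus E2 without E2 array 1.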
